A study of Danio rerio and Garra andruzzii with 24 samples.

Results

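A set of 10 genes of the immediate early class was followed through a blue light time course: fosab, fosl1a, fosl2, jun, junba, junbb, egr1, ier2a, ier2b and myca. They were chosen by gene name from the 35886 genes of the zebrafish count table, and 9 of the 10 had enough reads to be tested beside 18017 genes in all. Trinity genes (genes assembled from the reads without a genome) whose UniProt name was FOS, FOSL1, FOSL2, JUN, JUNB, EGR1 or IER2 were added: 9 of 25656 in the cavefish table and 9 of 24467 in the zebrafish assembly.

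Immediate early genes are transcribed within minutes of a stimulus without new protein synthesis, from promoters that kinase-activated factors such as SRF and CREB already occupy. Fos and Jun proteins dimerise through leucine zippers into AP-1, which binds DNA as a pair, while EGR1 is a zinc finger factor and MYC pairs with MAX. In cultured fibroblasts the class is best known for its brief response to serum and growth factors.

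The study compared EPA cells, a line from embryos of the blind Somalian cavefish Phreatichthys andruzzii, with PAC-2 cells, a line from zebrafish embryos. Both lines spent 2 days in darkness and were then exposed to blue light with a peak at 468 nm for 1, 3 or 6 h, or were collected at 0 h as the dark (DD) control. Each group held 3 libraries, 24 in all, of poly-A RNA. All groups of a line shared its medium, which held 20% serum for EPA cells and 15% for PAC-2 cells. No library was kept in darkness beyond 0 h, so an effect of light cannot be told apart from one of elapsed time. Whether the 3 libraries of a group came from separate cultures is unknown, and p-values measure only the spread between these libraries.

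The 12 PAC-2 libraries held 20037859 to 32521127 counts in the genome table, and the assembled tables held 25642113 to 41784013 estimated counts for PAC-2 and 28222058 to 40053884 for EPA. Of 17 fibroblast markers, 13 stood above 10 TPM in PAC-2 cells at 0 h, as did 3 of 7 epidermal markers, 1 of 6 endothelial, 1 of 7 muscle and 1 of 4 pigment markers. No blood or neural marker did. The highest marker of any type was epidermal krt8 at 1000 TPM, above the highest fibroblast marker, col1a2 at 461 TPM. TPM, computed from the deposited FPKM, compares genes per length. EPA cells had no such check.

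In darkness the Jun genes had the highest levels among the members. At 0 h junbb averaged 243 ± 9.69 TPM, jun 188 ± 9.24 and junba 151 ± 3.93 (SD, n = 3), and their ranges over libraries did not overlap. The growth-response gene ier2a followed at 64.7 ± 2.88 TPM, then fosl1a at 39.2 ± 3.43, fosl2 at 31.6 ± 2.57, myca at 23.4 ± 1.48 and ier2b at 10.8 ± 1.48 TPM. The Fos gene fosab was lowest of the detected members, at 5.28 ± 0.0578 TPM. No pair of neighbours in this order overlapped between libraries at 0 h. At 1 h ier2a and fosl1a overlapped, and at 6 h fosl1a and fosl2 did.

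egr1, which encodes a zinc finger factor of the immediate early class, had 0 counts in all 12 PAC-2 libraries. Together these libraries held 306527534 counts. In a single library, 3 counts would correspond to between 0.0922 and 0.150 CPM, a limit that covers counting error only. It was not tested, and no Trinity gene of either line carried an EGR1 name after the authors' filter on TPM. Its relatives egr2a, egr3 and egr4 averaged 211 ± 16.5, 20.1 ± 5.96 and 8.01 ± 2.86 normalised counts at 0 h (SD, n = 3). Whether the 0 reflects the cells or the authors' counting was not tested.

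**Figure D1:**
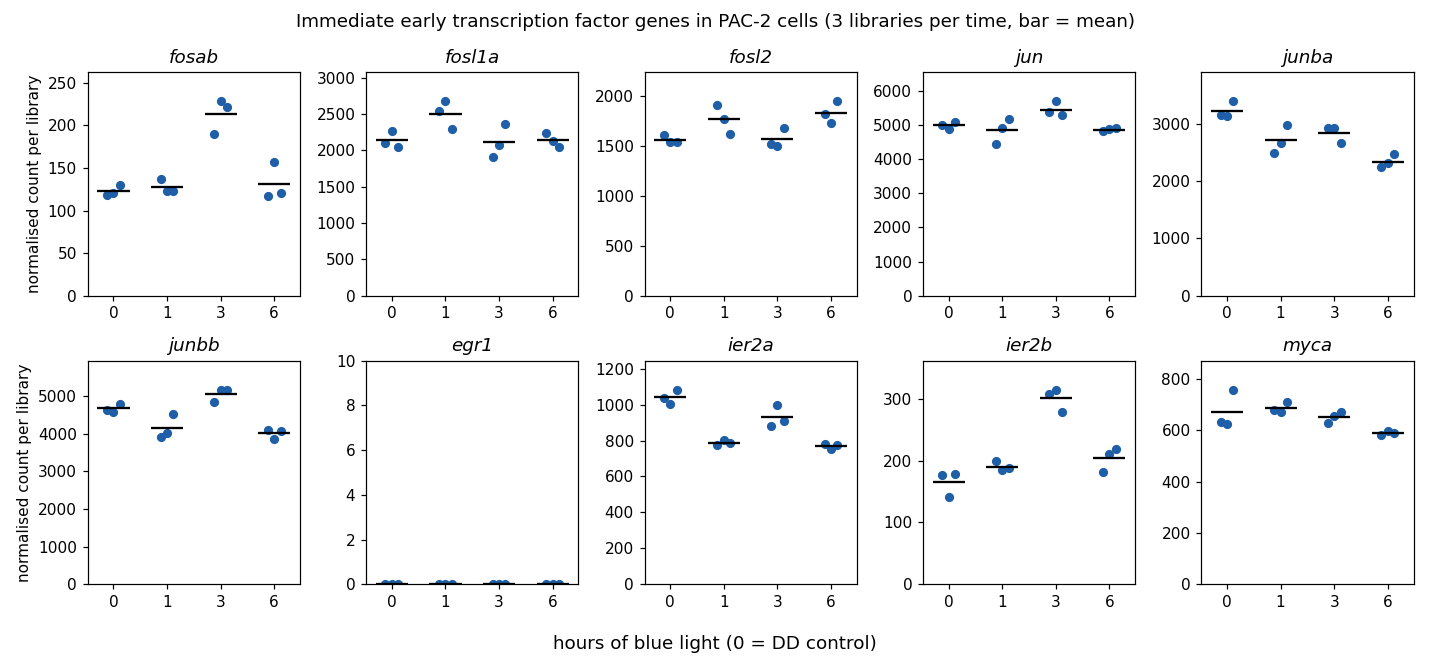
Normalised counts (vertical axes, starting at 0) of the 10 members in each PAC-2 library at 0, 1, 3 and 6 h (horizontal axes), with bars at the mean of 3 libraries. fosab and ier2b have all 3 libraries at 3 h above every library of 0 h. So do jun and junbb, which were not called at 3 h, and egr1 is at 0 throughout.

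The first question was which members changed when dark-adapted PAC-2 cells were lit. None was a differentially expressed gene (DEG, at least 2-fold with adjusted p under 0.001) at 1, 3 or 6 h, against backgrounds of 0.0222%, 0.733% and 1.54% of all genes tested. Smaller differences passed adjusted p under 0.05 in edgeR's quasi-likelihood test with Benjamini-Hochberg adjustment, and all fold changes below are on the log2 scale over 0 h.

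At 1 h ier2a was called lower and no member was called higher. No library was taken between 0 and 1 h, so a rise that ended before 1 h could not be seen. ier2a had normalised counts of 776, 802 and 788 at 1 h, against 1038, 1003 and 1082 at 0 h. The groups did not overlap. The change was -0.40 ± 0.0595 (SE, edgeR adjusted p = 0.00586). In all, 1 of 9 members was called lower and 0 higher, against 0.0167% and 0.155% of all genes. With so few genes called higher, 0 among 9 says little about the members. By unadjusted p under 0.05 in edgeR 5 of 9 passed, and DESeq2 called 1 lower and 0 higher. Here and below, the shares are for edgeR's adjusted p, and none was computed for unadjusted p or DESeq2. With only the 0 h and 1 h libraries fitted, ier2a was not called (adjusted p = 0.0712).

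At 3 h ier2b and fosab rose. ier2b, a small nuclear protein of the Ier family, had 308, 314 and 279 normalised counts at 3 h, against 177, 140 and 179 at 0 h. This was the largest change of a member, 0.86 ± 0.114 (SE, edgeR adjusted p = 6.4e-05). fosab, a zebrafish c-fos gene, had 190, 229 and 222 at 3 h, against 118, 121 and 130 at 0 h. Its change was 0.80 ± 0.134 (SE, edgeR adjusted p = 0.000611), and no library of 1 group overlapped the other.

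junba, which encodes a JunB protein, was lower at 3 h by edgeR. Its normalised counts were 2930, 2919 and 2654 at 3 h, against 3145, 3131 and 3394 at 0 h, a difference of -0.18 ± 0.0636 (SE, edgeR adjusted p = 0.0487). This call lost significance when any of 10 libraries was left out, with the change between -0.21 and -0.14. The counts were 2 members higher and 1 lower, against 11.3% and 10.1% of all genes. The median change of the 9 members was 0.03 at 1 h, 0.00 at 3 h and -0.04 at 6 h, beside 0.00 over all genes at each time.

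At 6 h junba, junbb and ier2a were lower and fosl2 was higher, while jun (-0.04) and ier2b (0.29) were not called. junba had 2245, 2310 and 2464 normalised counts at 6 h, against 3145, 3131 and 3394 at 0 h, and it fell by 0.46 (SE 0.0640, edgeR adjusted p = 4.48e-05). ier2a had 780, 752 and 777 at 6 h, against 1038, 1003 and 1082 at 0 h, and fell by 0.43 (SE 0.0597, edgeR adjusted p = 4.09e-05). In both genes the groups stood apart.

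junbb, the member highest in TPM, had 4101, 3866 and 4064 at 6 h, against 4623, 4581 and 4791 at 0 h. It fell by 0.22 (SE 0.0531, edgeR adjusted p = 0.00521). fosl2, a Fos family member that also forms AP-1 with Jun proteins, had 1816, 1735 and 1950 at 6 h, against 1613, 1543 and 1536 at 0 h. It rose by 0.23 (SE 0.0644, edgeR adjusted p = 0.0133), a call lost without 6 h replicate 3 (adjusted p = 0.0766, change 0.18). With 1 of 9 higher and 3 of 9 lower, the background was 14.1% and 14.9%.

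jun, fosl1a and myca were not called at any time over 0 h. jun, the founding AP-1 partner of c-fos, had 4460 to 5188 normalised counts at 1 h, 5292 to 5707 at 3 h and 4819 to 4908 at 6 h, against 4884 to 5102 at 0 h. Its 95% intervals were -0.15 to 0.07 at 1 h, 0.02 to 0.24 at 3 h and -0.15 to 0.07 at 6 h. fosl1a had 2298 to 2680, 1911 to 2359 and 2048 to 2244 at 1, 3 and 6 h, against 2050 to 2262 at 0 h. myca, a zebrafish c-myc gene, had 670 to 708, 629 to 670 and 581 to 598, against 624 to 758 at 0 h, and its 6 h interval was -0.34 to -0.03 (edgeR adjusted p = 0.0674).

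**Figure D2:**
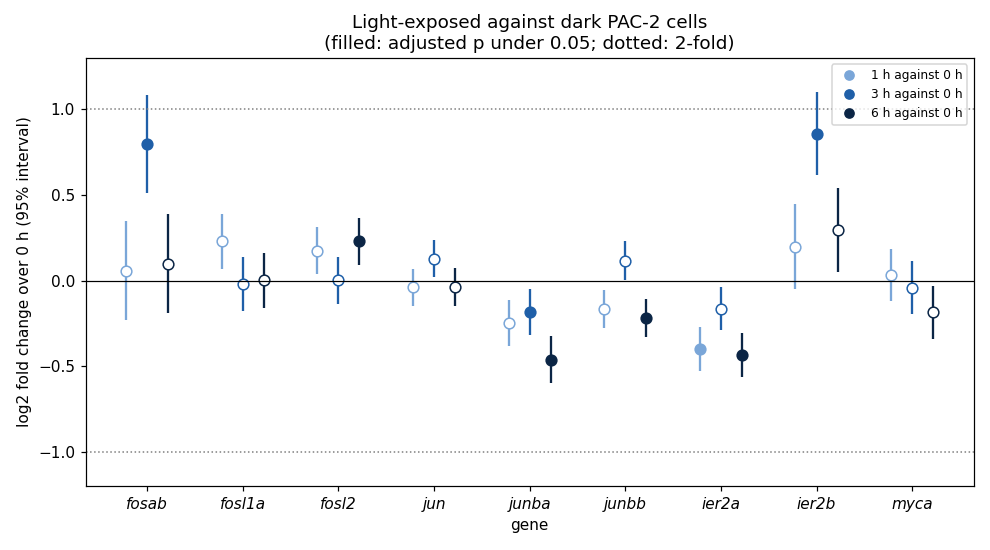
Log2 fold change over 0 h (vertical axis) with its 95% interval for the 9 tested members at 1, 3 and 6 h in PAC-2 cells; filled points have an adjusted p under 0.05 and dotted lines mark 2-fold. All points lie within the 2-fold lines, and the highest are ier2b at 0.86 and fosab at 0.80, both at 3 h.

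Successive exposures were compared next. At 3 h against 1 h, fosab was higher by 0.74 ± 0.132, ier2b by 0.66 ± 0.112, junbb by 0.28 ± 0.0529, ier2a by 0.23 ± 0.0594 and jun by 0.17 ± 0.0515 (SE, edgeR adjusted p = 0.00128, 0.000824, 0.00181, 0.0123 and 0.0331). fosl1a was lower by 0.25 (edgeR adjusted p = 0.0298). These are 5 higher and 1 lower of 9, against 9.85% and 8.82% of all genes. Leaving out 1 h replicate 1 or 2, or 3 h replicate 1 or 2, ended the calls of jun (0.11 to 0.22 over single omissions) and fosl1a (-0.33 to -0.18), and leaving out 3 h replicate 2 ended that of ier2a (0.18 to 0.27).

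At 6 h against 3 h, fosab fell by 0.70 (SE 0.132, edgeR adjusted p = 0.000608) and ier2b by 0.56 (SE 0.112, edgeR adjusted p = 0.000855). junbb, junba, ier2a and jun were lower as well, by 0.33, 0.28, 0.27 and 0.17, and fosl2 was higher by 0.23. The count was 6 lower and 1 higher, against 20.1% and 20.4%, and 3 were lower once a trend of each library with gene span was removed, with the calls of jun, junba and ier2a lost. The jun call was lost without 3 h replicate 2 or 6 h replicate 1 (-0.19 to -0.13), and the fosl2 call without 3 h replicate 1 or 2 or 6 h replicate 3 (0.18 to 0.28). fosab and ier2b had their highest mean at 3 h and were not called at 6 h over 0 h, where their intervals were -0.19 to 0.39 and 0.05 to 0.54.

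The direction of several changes depended on scaling. In TPM, jun averaged 188 at 0 h, 184 at 1 h, 180.5 at 3 h and 195 at 6 h, while its mean count was highest at 3 h. ier2a averaged 64.7 TPM at 0 h, 49.5 at 1 h, 50.8 at 3 h and 51.1 at 6 h. junba averaged 117.5 TPM at 6 h, against 117.4 at 3 h. junbb averaged 232 TPM at 3 h, against 243 at 0 h, where its counts were higher at 3 h, and 223 TPM at 6 h, against 232 at 3 h, a smaller gap than in counts. fosab averaged 8.11 TPM at 3 h, against 5.28 at 0 h, and ier2b 17.2, against 10.8. At 6 h they averaged 6.06 and 14.1 TPM, against 8.11 and 17.2 at 3 h, the same direction as in counts but smaller.

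Change varied with gene length over the whole table, and the members are mostly short. Over 18017 genes the correlation of the log2 fold change with log2 gene length was -0.119 at 3 h and 0.0756 at 6 h, as a description across genes. Median changes ran between 0.09 for genes under 1000 bases and -0.13 for genes above 6000 bases at 3 h. ier2b and fosab at 3 h (0.86 and 0.80) stood beside medians of 0.09 and 0.04 over genes of like length. junba and ier2a at 6 h (-0.46 and -0.43) stood beside -0.05 and -0.06. The correlation was larger for 6 h against 3 h, at 0.183 with gene length and 0.294 with gene span, where median changes were -0.16 for genes of 1000 to 1500 bases and -0.11 for genes of 1500 to 2000 bases. With the span trend removed, jun at 6 h against 3 h came to 0.0089, junba to -0.10 and ier2a to -0.09, none called, while fosab (-0.53), ier2b (-0.38) and junbb (-0.16) kept their calls. With the length trend removed, ier2a alone lost its call there (-0.14). The trends removed here were chosen after seeing the data, and with either of them removed the calls over 0 h given above were kept. Under both, ier2a at 3 h (-0.24 and -0.28 with the length and the span trend removed) and ier2b at 6 h (0.34 and 0.36) were called as well. At 3 h against 1 h, jun and ier2a lost their calls under both.

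**Figure D3:**
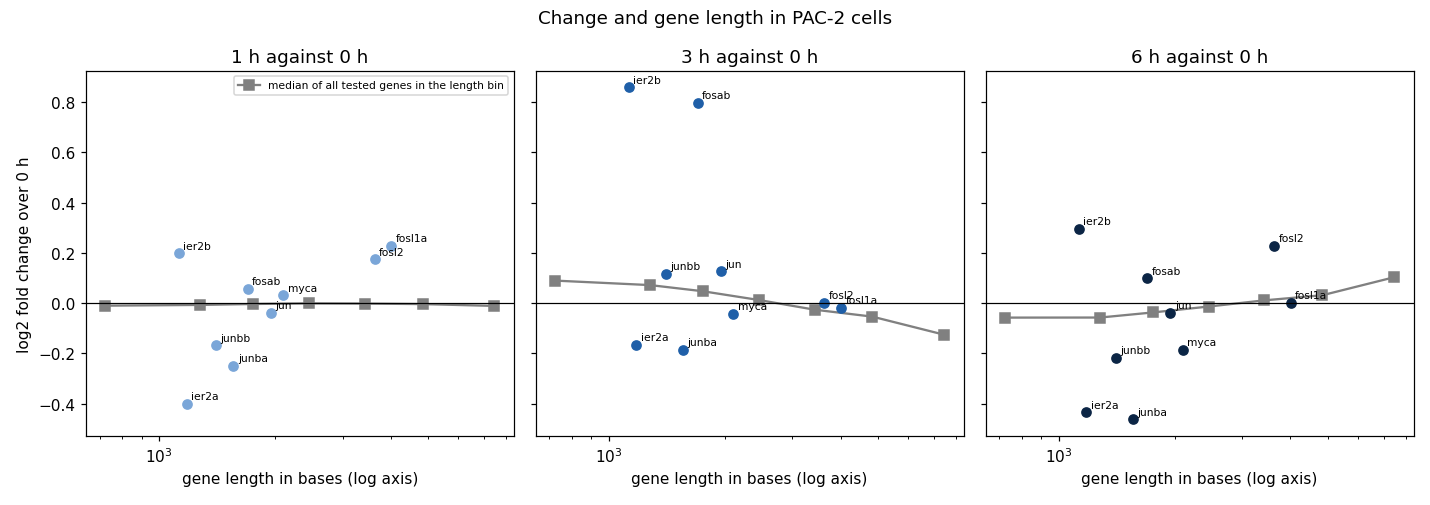
Log2 fold change over 0 h (vertical axis) against gene length in bases (logarithmic horizontal axis) at 1, 3 and 6 h in PAC-2 cells; circles are the 9 tested members and grey squares the median of all tested genes in 7 length bins. ier2b and fosab at 3 h lie far above the median of their bins, which is within 0.09 of 0.

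ier2a with ier2b and junba with junbb are paralogs, whose differences from each other were not tested, and reads shared between such copies could be split uncertainly by the counting. On GRCz11, ier2a lies at chr3:33761549-33762726 and ier2b at chr11:31038409-31039533, with gene lengths of 1178 and 1125 bases that equal their spans. fosab lies at chr20:46552311-46554440 on the minus strand, jun at chr20:15552657-15554606 on the plus strand, junba at chr1:51732979-51734535 and junbb at chr3:7654655-7656059, both on the minus strand. Over the 12 libraries, log2 CPM of fosab and ier2b correlated at r = 0.89 and junba and ier2a at r = 0.84, while fosl2 and junba stood at r = -0.80. The libraries share times and scaling, so these are descriptions. Among 11413 other annotated genes, cnppd1 (r = 0.96), snapc1b (0.95) and the cryptochrome gene cry2 (0.93) followed ier2b most closely. PPP2CA (0.96), wdr12 (0.96) and terfa (0.95) followed junba, and ptpn12 (0.89), cyr61 (0.88) and tpgs2 (0.85) followed ier2a.

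The assembled PAC-2 table measured the same libraries again, so it is a second count of the same RNA. Of 9 Trinity genes, 0 were called at 1 h, 4 at 3 h and 2 at 6 h, against 0.107%, 15.0% and 22.4% of all Trinity genes. At 1 h, 3 had an unadjusted p under 0.05 in edgeR, and DESeq2 called 1, with no share computed for either. The FOS Trinity gene had 212, 221 and 228 normalised counts at 3 h, against 143, 127 and 145 at 0 h (change 0.67 ± 0.113 SE, edgeR adjusted p = 0.00491). One of the IER2 Trinity genes rose by 0.83 at 3 h (edgeR adjusted p = 0.00144), and the other fell by 0.43 at 6 h (edgeR adjusted p = 0.000968). A JUNB Trinity gene fell by 0.45 at 6 h, and a JUN one rose by 0.44 at 3 h. The JUN call was lost without 0 h replicate 1 or 2 or 3 h replicate 2 (0.33 to 0.53). The other JUN Trinity gene (0.10), which has more counts, and jun in the genome counts (0.13) were not called at 3 h. FOSL2 at 6 h (0.23, edgeR adjusted p = 0.0528) was not called either, while fosl2 was called there in the genome counts. A further Trinity gene carried the names FBLN4, FIBP and FOS together, and it was lower at 3 h by 0.29, a call lost without 0 h replicate 1 or 2 or any 3 h replicate (-0.35 to -0.23).

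In EPA cells few Trinity genes of any kind were called at 1 h and 3 h. There, 0 calls among 9 say little about the members. Of 9 Trinity genes, 0 were called at 1 h and 0 at 3 h, against 0.316% and 1.28% of all Trinity genes, and 2 at 6 h, against 6.26%. At 1 h and 3 h, 4 and 1 had an unadjusted p under 0.05 in edgeR, and DESeq2 called 1 and 0, again without a share. FOSL1 had 858, 995 and 818 normalised counts at 6 h, against 702, 707 and 676 at 0 h, and the groups did not overlap. It rose by 0.36 (SE 0.0689, edgeR adjusted p = 0.0153), a call lost without 0 h replicate 1 or 3 (0.27 to 0.42). One IER2 Trinity gene had 1694, 1749 and 1734 at 6 h, against 1624, 1559 and 1492 at 0 h, a change of 0.15 (SE 0.0354, edgeR adjusted p = 0.0404). It kept its call in only 3 of 17 alternatives.

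Whether the FOS Trinity gene of EPA cells is the ortholog of fosab was not tested. It had 253, 306 and 267 normalised counts at 3 h, against 284, 233 and 222 at 0 h. Its groups overlapped, and its change of 0.16 had an interval of -0.12 to 0.44. Between 3 h and 1 h, and between 6 h and 3 h, 0 of 9 were called, against 0.510% and 1.58%. By unadjusted p 5 and 3 passed in edgeR, and DESeq2 called 3 and 1, without a share for either. A missed threshold does not show that EPA members did not change.

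Whether the lines differed was tested as an interaction over 6238 UniProt names shared by both assemblies, with the Trinity genes of a name summed. Differences are EPA minus PAC-2 on the log2 scale. At 1 h 1 of 6 names differed, at 3 h 4 and at 6 h 3, against 1.22%, 27.5% and 46.9% of all names. The count at 6 h was near the share of all names.

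FOS at 3 h differed by -0.54 ± 0.154 (SE, edgeR adjusted p = 0.0132). It had 218, 264 and 230 normalised counts at 3 h and 250, 205 and 194 at 0 h in EPA cells, and 241, 251 and 262 at 3 h and 164, 147 and 165 at 0 h in PAC-2 cells. The EPA times overlapped and the PAC-2 times did not. JUNB differed by 0.36 at 6 h (SE 0.0708, edgeR adjusted p = 0.000355), with a within-line change of -0.06 in EPA cells and -0.42 in PAC-2 cells. In PAC-2 cells the JUNB name was not a sum, while in EPA cells it summed Trinity genes at 12924 and 299 normalised counts at 0 h. IER2 differed by 0.30 at 6 h (SE 0.0559, edgeR adjusted p = 0.000174), with 0.09 in EPA cells and -0.22 in PAC-2 cells, and FOSL2 differed by -0.28 at 6 h (edgeR adjusted p = 0.00753).

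IER2 at 1 h (0.25), and FOSL1 (0.39), JUN (-0.14) and JUNB (0.19) at 3 h, also passed, but lost their call when 1 library was left out, in 6, 9, 19 and 19 of 24 cases. Their ranges were 0.23 to 0.28, 0.32 to 0.52, -0.17 to -0.12 and 0.15 to 0.23. PAC-2 JUN includes a Trinity gene that carries both a JUN and a JUNB name, and PAC-2 IER2 sums 2 Trinity genes that moved apart, so these names are mixtures. The PAC-2 Trinity gene named FBLN4, FIBP and FOS was not counted under FOS. Whether a name held the same genes in both lines was not tested. Species and cell line, and the serum in their media, cannot be told apart.

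**Figure D4:**
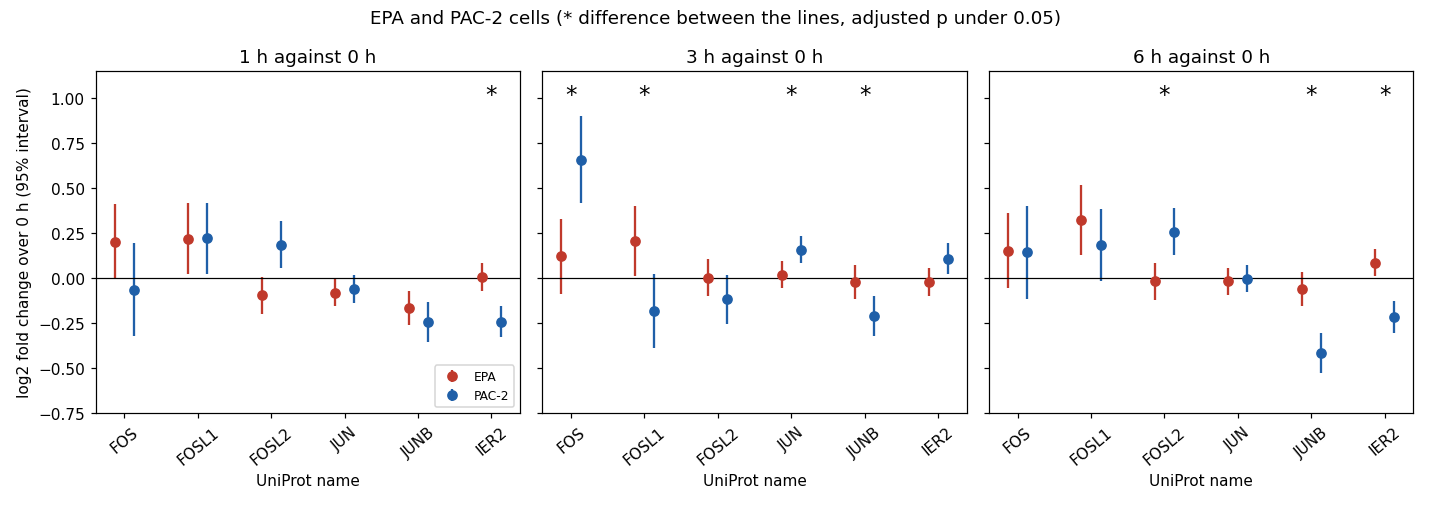
Log2 fold change over 0 h (vertical axis) with 95% intervals for 6 UniProt names in EPA (red) and PAC-2 (blue) cells at 1, 3 and 6 h; a star marks an EPA minus PAC-2 difference with adjusted p under 0.05. FOS at 3 h is at 0.12 in EPA cells and 0.66 in PAC-2 cells.

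Genes around the members were read from lists of related genes in PAC-2 cells, whose medians stand beside 0.00 over all genes at 3 and 6 h and whose counts stand beside the background shares given above. Of 12 tested other AP-1 family genes, 1 was higher at 1 h, 2 higher and 4 lower at 3 h, and 2 higher and 1 lower at 6 h, with medians of -0.19 at 3 h and 0.17 at 6 h. atf3, a stress-induced bZIP factor, was called at every time. It averaged 707 ± 33.2, 706 ± 24.3 and 821 ± 61.4 normalised counts at 1, 3 and 6 h, against 524 ± 35.1 at 0 h (SD, n = 3), with changes of 0.43, 0.43 and 0.65 (edgeR adjusted p = 0.0157, 0.000634 and 4.64e-06). jdp2b, a repressor of AP-1, rose by 0.87 at 3 h. fosb was lower by 0.59 at 3 h and stood at 0.04 at 6 h, not called. fosl1b was lower by 0.59 at 6 h.

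Of 11 Myc and Max genes, 1 was higher at 1 h, 4 were higher and 1 lower at 3 h, and 4 higher and 2 lower at 6 h, with medians of 0.12 and 0.09 at 3 and 6 h. The gene higher at 1 h was mycn, an N-myc gene named here after its values were seen, with 424 ± 36.4 normalised counts, against 295 ± 20.8 at 0 h (0.52, edgeR adjusted p = 0.0353). myclb, an L-myc gene, was a DEG at 3 and 6 h, at 51.9 ± 10.1 and 39.4 ± 2.94 normalised counts, against 10.5 ± 2.32 at 0 h, with changes of 2.27 and 1.89 (edgeR adjusted p = 6.8e-05 and 0.000231). mych was higher and mycb lower at 6 h, at 0.41 and -0.46, beside myca at -0.19, which did not pass. Of 6 other Egr and Ier genes, 0 passed at 3 h and 2 were lower at 6 h, egr2a by 0.80 and ier3ip1 by 0.26, the last of which encodes an endoplasmic reticulum protein that binds IER3 and is no Ier family member, with list medians of 0.02 and -0.14.

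Of 31 other immediate early genes, 9 were higher and 4 lower at 3 h, and 11 higher and 5 lower at 6 h, with medians of 0.05 and -0.01. klf2b, a Krüppel-like factor, was a DEG at 3 h with 315 ± 54.5 normalised counts, against 138 ± 17.5 at 0 h (1.19, edgeR adjusted p = 1.34e-05). gadd45aa, a growth arrest gene, rose by 0.84 at 3 h, ctgfb by 0.89 at 6 h, and btg2 was lower by 0.73 at 6 h.

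Of 14 tested MAP kinase phosphatase and feedback genes, 0 were higher at 1, 3 or 6 h, against 0.155%, 11.3% and 14.1% of all genes. Lower were 3 at 3 h and 3 at 6 h, against 10.1% and 14.9%, with medians of -0.15 and -0.02. dusp5, which inactivates ERK, was lower by 0.98 at 6 h and dusp1 by 0.32. Of 21 MAP kinase genes, 1 was higher and 9 lower at 3 h, against 11.3% and 10.1% of all genes. At 6 h 2 were higher and 3 lower, against 14.1% and 14.9%. The medians were -0.20 and 0.07. Over all genes, change at 3 h correlated with log2 gene length and span at -0.119 and -0.191. These trends were not removed for any of the lists. srfa, an SRF gene, was lower by 0.87 at 3 h and stood at 0.09 at 6 h, not called. Among 11 SRF, ternary complex and CREB factors, 2 were lower at 3 h, and 4 higher and 1 lower at 6 h. Their medians were -0.10 and 0.26. Of 14 known AP-1 targets, 1 was higher and 1 lower at 3 h, and 1 higher and 4 lower at 6 h, with medians of 0.02 and -0.14, and ccnd1 at -0.20 and timp2a at -0.17 among the lower.

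**Figure D5:**
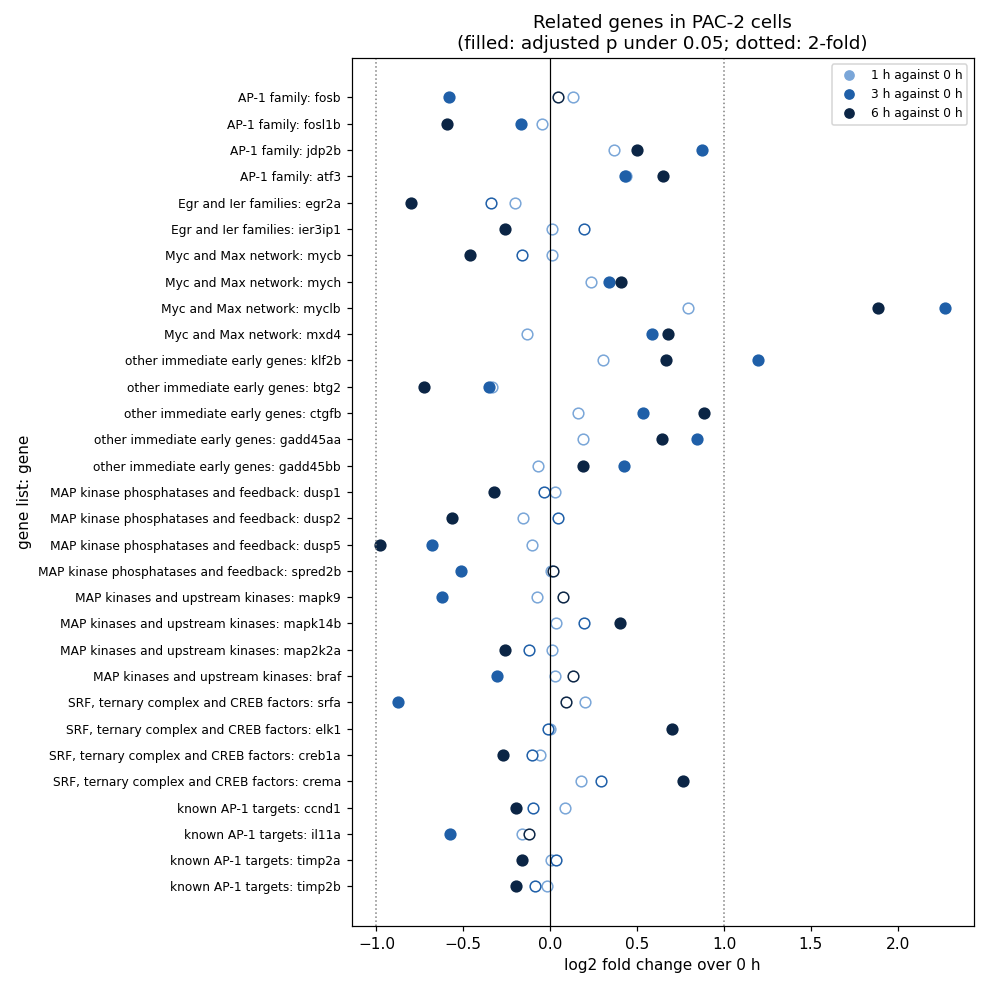
Log2 fold change over 0 h (horizontal axis) of the named genes of 8 lists (rows) at 1, 3 and 6 h in PAC-2 cells; filled points have an adjusted p under 0.05. Only myclb and klf2b lie beyond the 2-fold lines, at 2.27 and 1.19 at 3 h.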

How the data were processed

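RNA-seq of 24 libraries was analysed. The authors deposited counts per gene for PAC-2 cells, mapped to GRCz11, as the sequencing provider made them. Aligner, counter and strand setting: not given in the sources used here. FPKM values and gene lengths were deposited for the same genes, and FPKM was rescaled to TPM. For both lines the authors deposited estimated counts of Trinity genes, assembled from the reads, quantified and filtered on TPM, and named by UniProt; these expected counts were rounded to whole numbers.

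Counts were tested with edgeR 4.0.16 (R 4.3.3; TMM, filterByExpr, quasi-likelihood test, Benjamini-Hochberg over all genes tested) with the 12 libraries of a table in 1 fit; DESeq2 1.42.0 was an alternative. Normalised counts are at the mean library size. Likeness was Pearson's r of log2 CPM (prior count 2) among genes of at least 50 normalised counts. Named genes were all members and, in each list, DEGs and at most 4 others with the smallest adjusted p under 0.05. Of the list symbols, 6 were matched through synonyms. The members, lists and rule were chosen with earlier results of these data known. The code was tested on simulated data. No value column was left unmapped (0).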

Additional observations from a re-analysis of the deposited data

Results flagged for a closer look

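The changes of 8 name and time pairs differed between EPA and PAC-2 cells by the edgeR interaction test. Of the 6 names tested, 1, 4 and 3 differed at 1, 3 and 6 h, against 1.22%, 27.5% and 46.9% of all names. At 6 h the count was near the share of all names. Differences are EPA minus PAC-2 on the log2 scale. IER2 differed by 0.25 at 1 h and by 0.30 at 6 h. At 3 h FOS differed by -0.54, FOSL1 by 0.39, JUN by -0.14 and JUNB by 0.19. At 6 h FOSL2 differed by -0.28 and JUNB by 0.36. At 3 h JUN and JUNB each kept their call in 7 of 27 alternatives and FOSL1 in 18, and IER2 at 1 h in 21. The other pairs kept theirs in all 27, though FOS at 3 h and FOSL2 at 6 h only just. Their highest edgeR adjusted p over the alternatives was 0.0493 and 0.0491. Groups of 3 libraries were too small for a check on outlying samples.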

How the results depend on the processing

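The numbers of libraries do not pair them: 1 of 18 same-number pairs correlated above 0.1 in the genome table and 0 in the others. With the replicate block, 1 EPA Trinity gene was called at 6 h instead of 2 (IER2 lost its call). Of 54 single changes called in the main fit or in an alternative, 53 kept their status with the block, called or not called. No member became a DEG under any alternative. In the genome table the count lower at 1 h was 0 with only the times compared fitted. The count lower at 3 h was 2 with RLE normalization, and 2 with the gene length or gene span trend removed, both chosen after seeing the data. Those trends gave 2 higher at 6 h and 3 higher at 3 h against 1 h, and the span trend 3 lower at 6 h against 3 h, where jun turned to 0.0089. In the PAC-2 assembly DESeq2 called 1 at 1 h and 4 at 6 h, and the times alone 2 at 3 h. In EPA cells DESeq2 called 1 at 1 h, 3 at 3 h against 1 h and 1 at 6 h against 3 h, while at 6 h the unfiltered fit called 1 and the times alone 0. With the most abundant Trinity gene per name, IER2 at 3 h turned to 0.14 (not called). The order of levels at 0 h did not change. Leaving out 1 library gave, in the genome table, 1 to 2 lower at 1 h, 0 to 1 lower at 3 h, 0 to 2 higher at 6 h, 3 to 5 higher and 0 to 2 lower at 3 h against 1 h, and 0 to 1 higher at 6 h against 3 h. It gave 0 to 1 and 2 to 4 in the PAC-2 assembly at 1 and 3 h, 0 to 1 in EPA at 3 and 6 h, and 0 to 1 and 1 to 4 for the interaction at 1 and 3 h. egr1 could not be tested, with 0 counts, and fosab had as few as 98 counts in a library.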
